A study of Homo sapiens with 8 samples.

Results

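The ADAM genes encode membrane-anchored proteins with a metalloprotease and a disintegrin domain. The 10 described here were ADAM8, ADAM9, ADAM10, ADAM12, ADAM15, ADAM17, ADAM19, ADAM22, ADAM23 and ADAM28, found by gene symbol among the array's probe sets. They had 27 of the 22277 probe sets and made up 10 of the 11963 genes that could be named; 13 of the 27 probe sets never passed the limit of usable signal given below, and 8 of the 10 genes could be tested. The family was chosen by the measured log2 levels of ADAM22 and ADAM23, which were known to be far lower in Caco-2 cells given a hairpin against GATA6. The Caco-2 comparison of the ADAM genes is therefore a description with no test, as are the levels of ADAM22 and ADAM23 in Caco-2 control cells. The HUG1N arrays played no part in that choice.

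An active ADAM protease cuts other membrane proteins close to the cell surface and releases their outer part, a step called shedding. ADAM10 starts the cleavage of ligand-bound Notch and sheds cadherins, and ADAM17 releases tumour necrosis factor and several ligands of the epidermal growth factor receptor. ADAM22 and ADAM23 lack a working protease site; they act as adhesion receptors and are known from the nervous system, where they bind secreted LGI proteins.

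Expression was measured on Affymetrix arrays in 8 samples of 2 human cancer cell lines, in 4 groups of 2 arrays. The groups were HUG1N cells treated with a GATA6 short hairpin RNA (HUG1N shRNA), HUG1N control cells, Caco-2 cells treated with a GATA6 short hairpin RNA (Caco-2 shRNA) and Caco-2 control cells. HUG1N, given as HuG-1 in some labels, comes from gastric cancer, and Caco-2, a line from colorectal cancer, can take on enterocyte features. GATA6 binds DNA through zinc fingers and acts in the gut endoderm, and the study asked about its role in gastric cancer. Infected cells were selected with puromycin. The labels carry the same treatment text for control samples, so what the controls received is not known here, nor is the hairpin sequence or whether a group's arrays came from separate cultures; p-values measure only the spread between these arrays.

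Values are log2 expression made with GCRMA, with a shared lowest value of 2.08 on all 8 arrays. A log2 level of 4 was taken as the lower limit of a usable signal. Where no array of a group passed it, only a bound on the ratio is printed, set by the other group's mean over log2 4. A lower level in these bulk samples can mean fewer cells with the transcript or less of it per cell, which cannot be told apart. GATA6 read 12.26 and 12.22 in HUG1N shRNA cells, against 12.54 and 12.45 in HUG1N control cells. In Caco-2 shRNA cells it read 12.23 and 12.02, against 12.63 and 12.45 in Caco-2 control cells. That left 83.9% of the control level in HUG1N (95% interval 70.5 to 99.9%, limma adjusted p = 0.0879) and 74.9% in Caco-2 (62.9 to 89.2%, limma adjusted p = 0.0224). Leaving out Caco-2 control replicate 1 ended the Caco-2 call on GATA6 (adjusted p = 0.114), as did leaving out Caco-2 shRNA replicate 2 (adjusted p = 0.0964), testing with no filter (adjusted p = 0.0562) and fitting the Caco-2 arrays alone (adjusted p = 0.059). In HUG1N the difference passed with a replicate block (adjusted p = 0.0468) and with a robust variance trend (adjusted p = 0.0346).

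All 8 epithelial markers passed log2 4 on both arrays of each group. Of 7 gastric markers 5 did so in HUG1N shRNA cells and 6 in HUG1N control cells, with GKN1 at the lowest value throughout, and 3 did so in both Caco-2 groups. Of 8 intestinal markers 6 did so in Caco-2 shRNA cells and 7 in Caco-2 control cells, while ALPI stayed under 4, and 3 did so in both HUG1N groups. No neuronal marker of 9 with a probe set passed it in any group. Immune markers passed on both arrays for 0 of 6 genes in 3 groups and for 1, CD14, in Caco-2 control cells. Fibroblast markers passed for 1 of 8 genes in both HUG1N groups, 2 in Caco-2 shRNA cells and 0 in Caco-2 control cells, with lumican (LUM) at 7.53 in Caco-2 shRNA cells and 3.43 in Caco-2 control cells. COL1A1 averaged 4.60 in HUG1N shRNA, 4.39 in HUG1N control, 4.34 in Caco-2 shRNA and 4.16 in Caco-2 control cells, and the other 6 genes of the list, COL1A2, COL3A1, DCN, PDGFRA, PDGFRB and THY1, stayed under log2 4 in all 4 groups. The summed fibroblast level was 7.79 to 7.93 in Caco-2 shRNA cells and 5.76 to 5.85 in Caco-2 control cells on the log2 scale. The summed gastric level was 8.51 to 8.73 in Caco-2 shRNA cells and 11.89 to 11.97 in Caco-2 control cells. Their part in the Caco-2 values below was not tested.

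**Figure D1:**
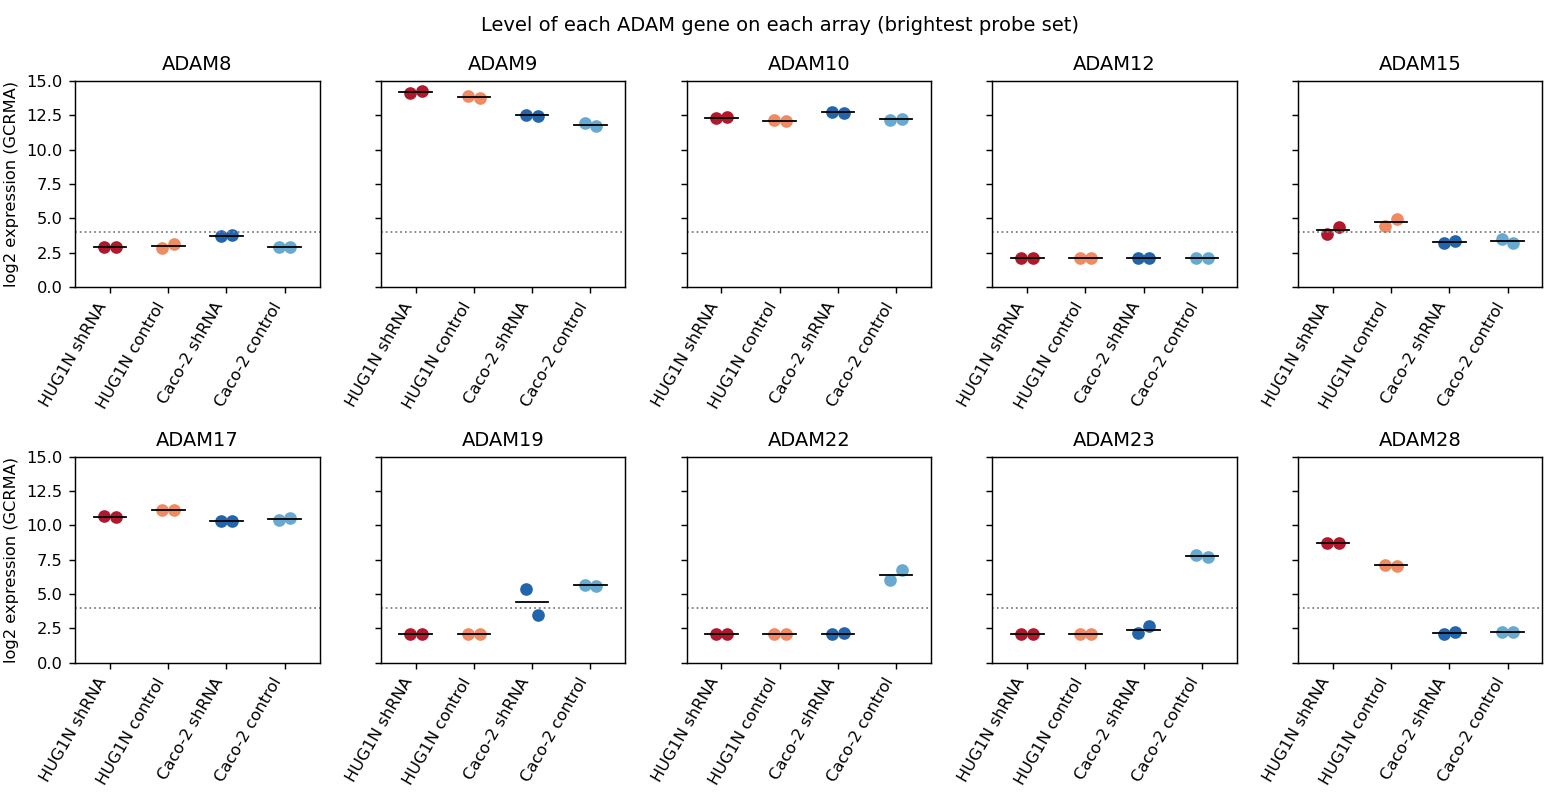
Log2 expression of each ADAM gene on each array (points), with the group mean as a bar and a dotted line at log2 4; groups run from HUG1N shRNA to Caco-2 control along the horizontal axis. ADAM22 and ADAM23 pass the dotted line only in Caco-2 control cells, ADAM28 only in HUG1N cells, and ADAM9, ADAM10 and ADAM17 stand above 10 on every array.

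ADAM22 and ADAM23, the adhesion receptors without protease activity, had a usable signal in Caco-2 control cells only. ADAM23 read 2.15 and 2.68 in Caco-2 shRNA cells, against 7.82 and 7.73 in Caco-2 control cells, and its second probe set read 2.08 and 2.08 against 7.16 and 6.83. ADAM22 read 2.08 and 2.16 in Caco-2 shRNA cells, against 6.05 and 6.73 in Caco-2 control cells. Both genes thus sat near the bottom of the scale on every shRNA array, and the arrays of the groups did not overlap. The means were at least 13.7-fold lower in Caco-2 shRNA than in Caco-2 control cells for ADAM23, at least 7.98-fold by its second probe set, and at least 5.24-fold for ADAM22. These values are those the genes were picked for.

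The ADAM22 value rested on 1 of its 6 probe sets. The other 5 never passed 2.37 on any array, in Caco-2 control cells as well, so they carry no usable signal on either side. In HUG1N, ADAM22 read 2.08 on all 4 arrays, and ADAM23 read 2.09 on both shRNA arrays and 2.08 on both control arrays. With neither group above the limit, no ratio can be given there. The 9 neuronal markers were at or near the lowest value beside them, with ELAVL3 the highest at 2.60 in HUG1N control cells.

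The promoters of ADAM22 and ADAM23 are shown because these genes were low together in the cells given the hairpin against a GATA factor. They are taken from RefSeq (GRCh38.p14) and span 250 bases before to 50 after the annotated start, ADAM22 at chr7:87934001-87934300 and ADAM23 at chr2:206443282-206443581, both on the plus strand and written 5′ to 3′. Capitals mark the 4-letter core GATA or its reverse complement TATC, searched on both strands.
ADAM22: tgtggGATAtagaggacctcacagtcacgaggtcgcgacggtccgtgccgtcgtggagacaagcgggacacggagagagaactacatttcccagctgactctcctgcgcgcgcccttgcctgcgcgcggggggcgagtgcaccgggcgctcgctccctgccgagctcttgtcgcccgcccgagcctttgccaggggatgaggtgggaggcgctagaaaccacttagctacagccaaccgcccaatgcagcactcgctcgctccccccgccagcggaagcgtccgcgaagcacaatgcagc
ADAM23: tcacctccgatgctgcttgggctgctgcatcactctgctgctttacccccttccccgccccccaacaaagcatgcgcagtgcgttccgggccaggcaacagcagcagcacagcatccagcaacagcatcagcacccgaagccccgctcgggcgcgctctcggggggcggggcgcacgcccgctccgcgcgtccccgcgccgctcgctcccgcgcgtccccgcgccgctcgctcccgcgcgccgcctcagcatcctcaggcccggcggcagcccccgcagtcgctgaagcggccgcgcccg

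The ADAM22 window held 1 core, starting at base 6 of 300, and the ADAM23 window held none. Of 35116 RefSeq promoter windows of this length, 49.7% held at least 1 core. The longer forms, which are AGATAA or TGATAA and also AGATAG or TGATAG, each contain the core and were also searched on both strands. They were in neither window nor in those of the other ADAM genes with an entry, and 25.0% of all windows held at least 1 of them. Entries were present for 8 of the 10 genes, without ADAM9 and ADAM28. All 8 windows were rich in G and C, with 66.3 to 79.3% against a median of 58.7% over all windows, and held 26 to 44 CG pairs against a median of 14. Binding was not measured in these files, and sites farther away were not searched.

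Genes were also ranked by how like their profile over the 8 arrays was to that of ADAM22 or ADAM23. Both stand out in Caco-2 control cells only, so the nearest genes had to be highest there too, and nothing is read from that. Likeness was the root mean square difference between log2 profiles, each centred on its own mean, among 7695 other genes. For ADAM22 the nearest were DZANK1 (0.18), the pancreatic lipase relative PNLIPRP2 (0.26), the drug efflux pump ABCB1 (0.32), the butyrophilin-like BTNL8 (0.41) and the secreted phospholipase PLA2G2A (0.41). For ADAM23 they were the endosomal recycling gene VPS35L (0.29), the plasma protein gene ITIH2 (0.52), the alcohol dehydrogenase gene ADH6 (0.57), ADAM22 itself (0.61) and BTNL8 (0.61). ABCB1 had a mean of 2.08 in Caco-2 shRNA cells and 5.75 in Caco-2 control cells, and VPS35L had 3.03 in Caco-2 shRNA cells and 8.02 in Caco-2 control cells.

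ADAM19, a shedding protease that can cut neuregulins, gave an uneven picture in Caco-2. It read 5.40 and 3.48 in Caco-2 shRNA cells, against 5.68 and 5.58 in Caco-2 control cells. The difference of -1.19 was smaller than the SD of 1.36 between the shRNA arrays, and ran from -2.15 to -0.23 depending on which of these was left out. ADAM19 stood at 2.08 on all HUG1N arrays, and its second probe set at 2.08 on all 8 arrays. ADAM8, a protease best known from leukocytes, read 3.72 and 3.77 in Caco-2 shRNA cells, against 2.88 and 2.88 in Caco-2 control cells, all under the limit. ADAM12, known from muscle, placenta and tumours, never passed 2.09 with any of its 4 probe sets. ADAM8 and ADAM12 were therefore not tested.

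The broadly expressed shedding proteases kept a high signal in Caco-2. ADAM9, which cuts a wide range of surface proteins, read 12.54 and 12.48 in Caco-2 shRNA cells, against 11.93 and 11.73 in Caco-2 control cells, a 1.60-fold difference. ADAM10 read 12.77 and 12.67 in Caco-2 shRNA cells, against 12.17 and 12.23 in Caco-2 control cells, which is 1.43-fold. For both genes every shRNA array lay above every control array, and the other 2 probe sets of ADAM10 differed the same way, by 0.68 and 0.46 log2 units.

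ADAM17 read 10.33 and 10.33 in Caco-2 shRNA cells, against 10.42 and 10.56 in Caco-2 control cells. Its other probe sets differed by -0.32 and 0.21 log2 units, so they disagreed on the direction. ADAM15, a protease with a disintegrin domain that binds integrins, and ADAM28 had no Caco-2 array over log2 4. Among the 8 ADAM genes with a usable signal somewhere, 2 had both Caco-2 shRNA arrays above both control arrays and 4 had them below. Over all genes tested, 38.7% were called in Caco-2 and 73.5% had groups that did not overlap; since the comparison was used to pick the family, nothing is read from the counts.

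In HUG1N, ADAM28, ADAM9 and ADAM10 rose with the hairpin, and ADAM17 fell by 1 of its 3 probe sets, the brightest. Of the 8 genes tested, 3 were called higher and 1 lower, and 48.7% of all 7696 genes were called in this line (24.7% higher and 23.9% lower). ADAM19, ADAM22 and ADAM23 passed the filter through Caco-2 arrays alone and were at the bottom of the scale in both HUG1N groups, so they could not be called. Nothing is read from the share of ADAM genes called. These arrays also differed in control probes. The gap between the 3′ and 5′ probe sets of beta-actin (ACTB) was 3.73 ± 0.06 in HUG1N shRNA and 2.51 ± 0.23 in HUG1N control arrays, and the spiked-in bioB controls were at 4.65 ± 0.18 in HUG1N shRNA and 9.96 ± 0.10 in HUG1N control arrays (SD, n = 2 each); their part in the results below was not tested.

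ADAM28, a membrane and secreted protease known from lymphocytes and epithelium, had the largest change of the family in HUG1N. It read 8.72 and 8.72 in HUG1N shRNA cells, against 7.13 and 7.05 in HUG1N control cells. The arrays lay far apart relative to their spread, at 3.10-fold (log2 1.63, SE 0.08, 95% interval 1.43 to 1.83, limma adjusted p = 6.59e-05). A second probe set read 5.59 and 5.98 in HUG1N shRNA cells, against 4.08 and 3.25 in HUG1N control cells. The fit over 12758 probe sets gave it log2 2.12 (SE 0.27, limma adjusted p = 0.00163). Both of its shRNA arrays but only 1 control array passed log2 4, and its Caco-2 arrays hardly varied. Nothing is read from that p-value. The third probe set stayed under log2 4, and the ADAM28 call rests on the brightest set. The call held in all 17 alternatives, with adjusted p from 2.08e-05 to 0.00283, the last with the HUG1N arrays fitted alone.

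ADAM9 and ADAM10 changed by less. ADAM9 read 14.13 and 14.25 in HUG1N shRNA cells, against 13.88 and 13.74 in HUG1N control cells, or 1.30-fold (log2 0.38, SE 0.10, limma adjusted p = 0.0218). ADAM10 read 12.32 and 12.34 in HUG1N shRNA cells, against 12.15 and 12.07 in HUG1N control cells, or 1.17-fold (log2 0.22, SE 0.07, limma adjusted p = 0.0418). No shRNA array overlapped a control array for either gene. The mean of the ADAM10 probe sets gave 0.61. The other ADAM10 probe sets moved further the same way, by 1.09 (SE 0.12, limma adjusted p = 8.87e-04) and 0.51 (SE 0.14, limma adjusted p = 0.0269). The set with the smaller change of these is an x_at set, a name given where probes can match other transcripts.

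Both calls were close to the threshold. That of ADAM9 did not survive leaving out HUG1N control replicate 2 (adjusted p = 0.101) or HUG1N shRNA replicate 2 (adjusted p = 0.0952), or testing with no filter (adjusted p = 0.0511), within a range of 0.00373 to 0.101. That of ADAM10 was lost without any 1 of the 4 HUG1N arrays or either Caco-2 control array (adjusted p from 0.0664 to 0.153), and with HUG1N fitted alone (adjusted p = 0.08). Over 17 alternatives its adjusted p ran from 9.20e-04 to 0.153.

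ADAM17 fell by its brightest probe set only. That set read 10.65 and 10.59 in HUG1N shRNA cells, against 11.10 and 11.08 in HUG1N control cells (log2 -0.47, SE 0.07, limma adjusted p = 0.00290). The x_at set read 9.41 and 9.59 in HUG1N shRNA cells, against 9.32 and 9.44 in HUG1N control cells, and the s_at set 7.74 and 7.61 against 7.49 and 6.77. Neither of these passed the test, with differences of 0.12 (95% interval -0.15 to 0.39, limma adjusted p = 0.421) and 0.55 (-0.03 to 1.12, limma adjusted p = 0.106). The mean of the 3 sets reversed the sign, to 0.06 (adjusted p = 0.634), so the direction for the gene depends on the probe set; where each lies on the transcript is not known here.

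ADAM15 was dim in HUG1N, at 3.87 and 4.36 in HUG1N shRNA cells, against 4.47 and 4.96 in HUG1N control cells. The groups did not overlap, but the difference of -0.60 (95% interval -1.14 to -0.06) did not pass the test (limma adjusted p = 0.0648). It passed without HUG1N control replicate 1 (adjusted p = 0.0402), without HUG1N shRNA replicate 2 (adjusted p = 0.0369) and with values floored at 4 (adjusted p = 0.0478). Over single probe sets, 14 of the 27 were tested in HUG1N, and 6 rose, 1 fell and 7 were not called, beside 46.6% of all probe sets called (23.4% higher and 23.3% lower). The 6 were those of ADAM9, all 3 of ADAM10 and 2 of ADAM28. From the dimmer of these ADAM28 sets nothing is read, as given above.

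**Figure D2:**
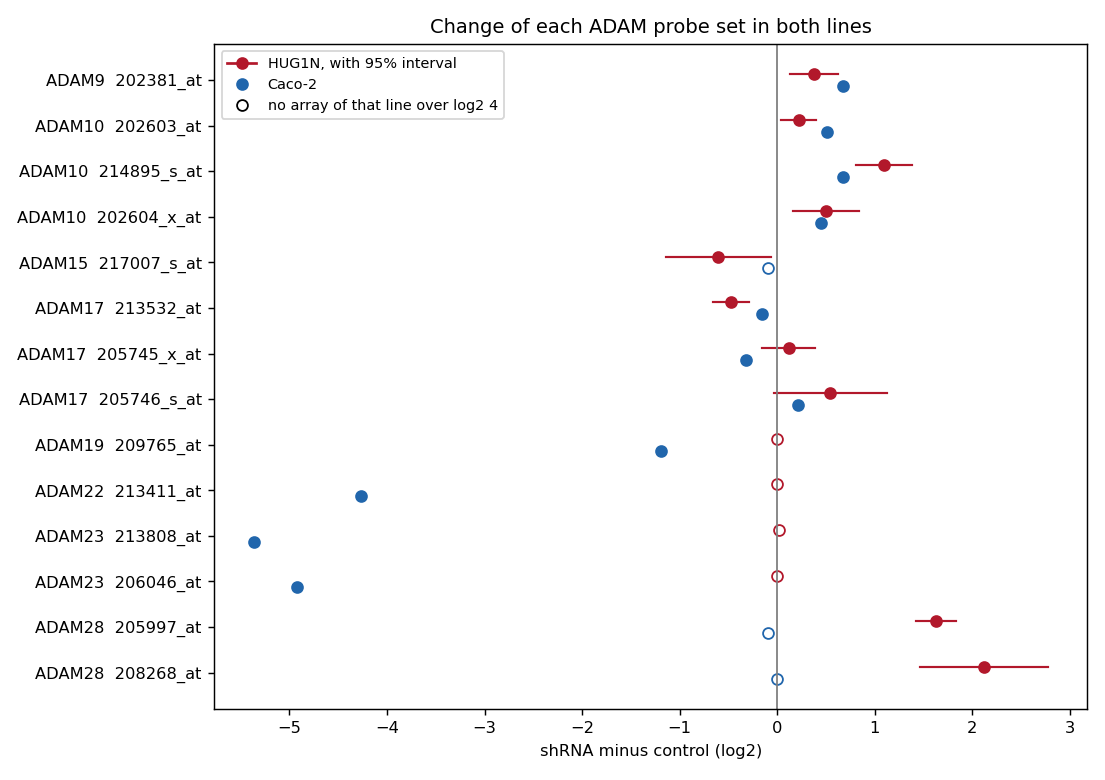
Difference between shRNA and control (log2, horizontal axis) for each ADAM probe set that passed log2 4 on at least 1 array, in HUG1N with its 95% interval and in Caco-2 as a point, since that comparison was used to pick the genes; open points mark lines with no array over log2 4. The ADAM10 sets lie right of 0 in both lines, the ADAM17 sets on either side, and the ADAM22 and ADAM23 sets far to the left in Caco-2.

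The lines differed in which ADAM genes they expressed. Among the 6 tested genes other than ADAM22 and ADAM23, 4 were called higher and 1 lower in HUG1N control than in Caco-2 control cells, where 78.4% of all genes were called (37.1% higher and 41.3% lower). ADAM15, ADAM19 and ADAM28 passed the filter through arrays of a single line, so nothing is read from these counts. ADAM28 read 7.13 and 7.05 in HUG1N control cells, against 2.26 and 2.26 in Caco-2 control cells, which is at least 8.51-fold higher (limma adjusted p = 5.29e-08). It passed the filter through HUG1N arrays alone and its Caco-2 control arrays did not vary, so nothing is read from its p-value. ADAM9 was 3.94-fold higher in HUG1N control cells (log2 1.98, SE 0.10, limma adjusted p = 4.89e-06), with no overlap between arrays. ADAM17 was 1.52-fold higher (log2 0.60, SE 0.07, limma adjusted p = 3.28e-04), although its other probe sets, with differences of 0.23 and 0.57, did not pass (limma adjusted p = 0.0969 and 0.0671).

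ADAM15 was at least 1.64-fold higher in HUG1N control than in Caco-2 control cells (limma adjusted p = 0.00128), and ADAM19 at least 3.09-fold lower (limma adjusted p = 0.00106). ADAM15 passed the filter through HUG1N arrays alone and ADAM19 through Caco-2 arrays alone, so nothing is read from either p-value. ADAM10 differed by -0.09 (95% interval -0.26 to 0.08, limma adjusted p = 0.280), a sign that median centring turned to 0.04. One of its other sets was called lower, by -0.46 (limma adjusted p = 0.0105). ADAM22 and ADAM23, as described values, were at least 5.24-fold and at least 13.7-fold lower in HUG1N control than in Caco-2 control cells. With the mean of probe sets the ADAM28 difference was 2.18, and with values floored at log2 4 those of ADAM15 and ADAM19 were 0.71 and -1.63. Nothing is read from their calls there either. Median centring moved the median difference over all genes by 0.14 log2 units in this comparison.

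The order of levels over the 4 groups differed between the shedding proteases. ADAM9 ran from HUG1N shRNA through HUG1N control and Caco-2 shRNA to Caco-2 control cells, with no overlap between neighbours. By its brightest set ADAM10 was highest in Caco-2 shRNA cells, then HUG1N shRNA, Caco-2 control and HUG1N control cells, and the HUG1N control and Caco-2 control levels did not differ beyond the test. By its x_at set the order was HUG1N shRNA (8.62), Caco-2 shRNA (8.49), HUG1N control (8.11) and Caco-2 control cells (8.03). ADAM17 was highest in HUG1N control cells, then HUG1N shRNA, Caco-2 control and Caco-2 shRNA cells, by its brightest set. Its x_at and s_at sets averaged highest in HUG1N shRNA cells, at 9.50 and 7.68, against 9.38 and 7.13 in HUG1N control cells. The s_at set also averaged higher in Caco-2 shRNA (6.77) than in Caco-2 control cells (6.56).

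No other family member gave a signal. Of 14 further ADAM genes listed, 9 had a probe set, and of 19 genes for the secreted ADAMTS proteases 10 did; 0 of these passed log2 4 on 2 arrays, so none was tested. Genes that act on or with ADAM proteins were measured better. In all, 63 listed genes were tested, of which 31 were called in HUG1N (10 higher, 21 lower) and 28 in Caco-2 (13 higher, 15 lower). As shares these were 49.2% and 44.4%, beside 48.7% and 38.7% of all genes. By direction, 24.7% of all genes were called higher and 23.9% lower in HUG1N, and 19.5% higher and 19.2% lower in Caco-2. Nothing is read from the counts in the single lists below.

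Among 12 tested genes for maturation, trafficking and inhibition, 1 rose and 5 fell in HUG1N, and 3 rose and 3 fell in Caco-2 (median differences -0.09 and 0.01, against 0.00 and -0.00 over all genes). RHBDF1, an iRhom that carries ADAM17 to the cell surface, rose in both lines. Its means were 8.86 in HUG1N shRNA and 8.16 in HUG1N control cells (limma adjusted p = 0.00440). They were 8.61 in Caco-2 shRNA and 7.19 in Caco-2 control cells (limma adjusted p = 3.88e-04). Its relative RHBDF2 was called in neither line, at -0.25 in HUG1N (limma adjusted p = 0.234) and 0.02 in Caco-2 (limma adjusted p = 0.951). TSPAN14, a tetraspanin partner of ADAM10, fell by 0.62 in HUG1N and by 0.88 in Caco-2 (SE 0.08 each). TIMP1 and TIMP2, secreted metalloprotease inhibitors, fell by 1.63 (SE 0.12) and 0.81 (SE 0.14) in HUG1N. In Caco-2, TIMP3, which inhibits ADAM17, rose by 1.58 (SE 0.06), and the proprotein convertase PCSK5 fell by 1.70 (SE 0.22).

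Of 27 tested genes for proteins that ADAMs shed, 4 rose and 10 fell in HUG1N, and 6 rose and 7 fell in Caco-2 (median differences -0.15 and -0.07). Over all genes 48.7% were called in HUG1N and 38.7% in Caco-2. In HUG1N the interleukin-6 receptor IL6R changed by -2.81 (SE 0.21; -1.41 with the mean of its probe sets), tumour necrosis factor (TNF) by -2.10 (SE 0.22), and the Notch ligand JAG1 by -1.20 (SE 0.07). The receptor kinase AXL was at least 2.31-fold lower, at a mean of 2.88 in HUG1N shRNA and 5.21 in HUG1N control cells (limma adjusted p = 2.47e-04). In Caco-2 the TNF receptor TNFRSF1B changed by -2.05 (SE 0.10), while the adhesion molecules L1CAM and ICAM1 rose by 1.71 (SE 0.16) and 1.68 (SE 0.14) and the proteoglycan SDC4 by 1.29 (SE 0.08). With the mean of its probe sets L1CAM rose by 0.86, and with values floored at log2 4 AXL changed by -1.21. Some of these genes were also called the same way in the other line. TNFRSF1B changed by -1.10 (SE 0.10) and SDC4 by 0.23 (SE 0.08) in HUG1N, and IL6R by -1.25 (SE 0.21) and JAG1 by -0.27 (SE 0.07) in Caco-2. AXL was not called in Caco-2, nor ICAM1 in HUG1N. TNF in Caco-2 and L1CAM in HUG1N had no array over log2 4.

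Of 8 tested genes of gamma-secretase, the enzyme that cuts Notch after ADAM10, and of Notch output, 2 rose and 3 fell in HUG1N and 0 rose and 3 fell in Caco-2 (median differences -0.40 and -0.19). The shares called over all genes were 48.7% in HUG1N and 38.7% in Caco-2. The target gene HES1 had means of 10.26 in HUG1N shRNA and 12.32 in HUG1N control cells (limma adjusted p = 7.95e-05), and of 11.52 in Caco-2 shRNA and 12.07 in Caco-2 control cells (limma adjusted p = 0.00990). With the mean of its probe sets HES1 changed by -1.003 in HUG1N and -0.25 in Caco-2. Without Caco-2 control replicate 2, HES1 no longer passed in Caco-2 (adjusted p = 0.0607). RBPJ, the DNA-binding partner of Notch, fell by 1.19 in HUG1N and by 0.60 in Caco-2 (SE 0.08 each), and APH1A, a gamma-secretase subunit, fell by 0.83 and 1.15 (SE 0.08 each).

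Among 10 tested genes for ligands and partners of ADAM22 and ADAM23, 2 rose and 2 fell in HUG1N, and 1 rose and 2 fell in Caco-2 (median differences -0.16 and 0.00). LIN7C, a scaffold protein, fell by 0.67 in HUG1N and by 1.27 in Caco-2 (SE 0.11 each); with the mean of its probe sets it changed by -0.60 in Caco-2, and its HUG1N call was lost (-0.21, adjusted p = 0.0540). Among 6 tested integrins that bind disintegrin domains, 1 rose and 1 fell in HUG1N, and 3 rose and 0 fell in Caco-2 (median differences 0.11 and 0.28). Both lists stand beside 48.7% of all genes called in HUG1N and 38.7% in Caco-2. The collagen receptor ITGA2 rose by 1.42 (SE 0.06) and ITGB5 by 0.68 (SE 0.07) in Caco-2, and ITGAV fell by 0.61 (SE 0.10) in HUG1N. ITGB1 was called higher in both lines by 0.26 in HUG1N and 0.36 in Caco-2 (SE 0.07 each), but the mean of its probe sets ended both calls, at 0.05 (adjusted p = 0.476) and 0.08 (adjusted p = 0.321). The HUG1N call on ITGB1 was also lost without HUG1N control replicate 1 (adjusted p = 0.0664), without HUG1N control replicate 2 (adjusted p = 0.0651) and without HUG1N shRNA replicate 2 (adjusted p = 0.0741).

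**Figure D3:**
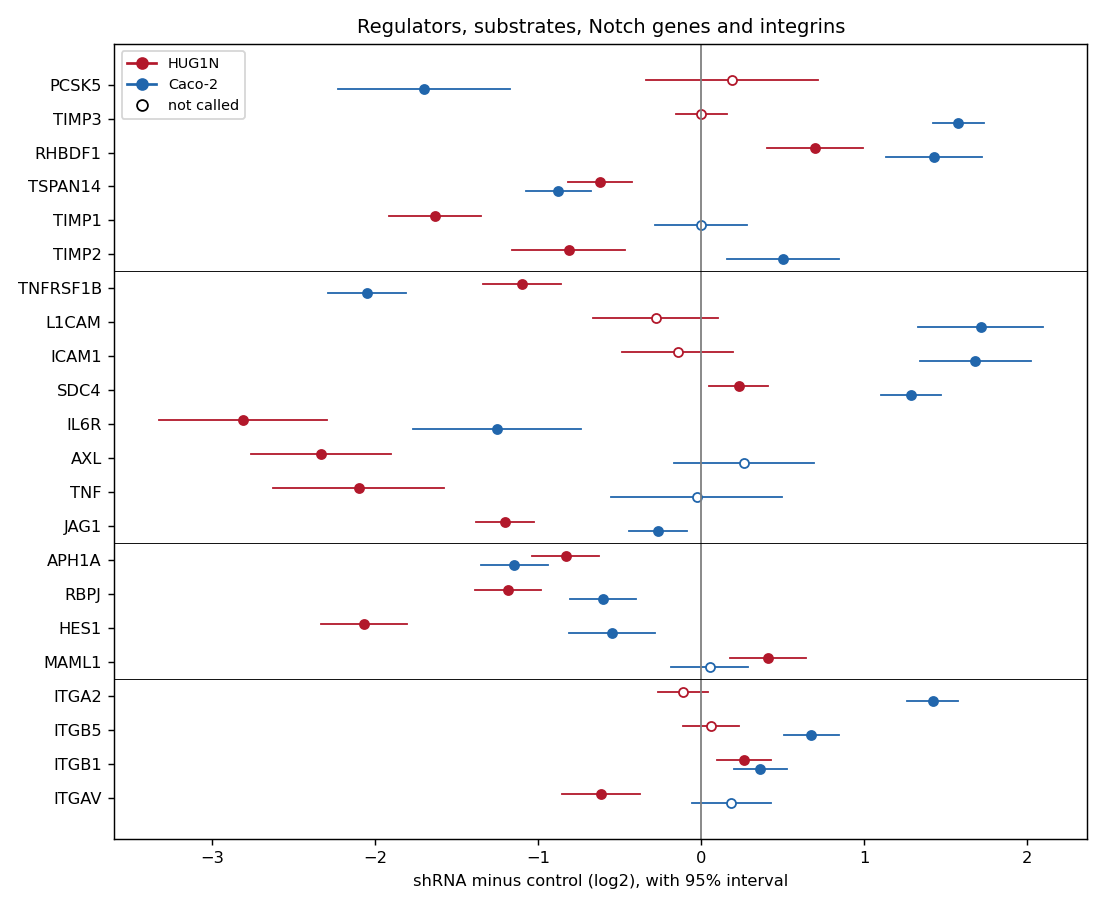
Difference between shRNA and control (log2, with 95% interval) in HUG1N and Caco-2 for the named genes of maturation and inhibition, shed substrates, Notch processing and integrins, from top to bottom; open points were not called. APH1A, RBPJ, HES1, TSPAN14, TNFRSF1B, IL6R and JAG1 lie left of 0 and were called in both lines. RHBDF1, SDC4 and ITGB1 lie right of 0 and were called in both.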

How the data were processed

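Each array's deposited file column holds log2 values for 22277 probe sets. According to the submitters' processing notes the authors used GCRMA, with no version or setting stated there. All arrays shared a lowest value of 2.08, and medians of groups ran from 4.75 to 4.95, so columns were treated as normalized together and not rescaled. Probe sets were named through the platform annotation, with symbols updated through Entrez identifiers (19058 of 19070 probe sets with 1 symbol matched a GRCh38.p14 table); 1043 had several symbols and 2164 none, and entered no gene test.

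The probe set with the highest mean stood for each of 11963 genes. Genes over log2 4 on at least 2 arrays were tested (7696). limma 3.58.1 in R 4.3.3 fitted the 4 group means over 8 arrays (4 residual and 2.17 prior degrees of freedom), two-sided, with Benjamini-Hochberg adjustment over all genes tested. An adjusted p under 0.05 is a call. Arrays at the lowest value hardly vary, so SE and p can be too small for genes at the bottom in some groups. A second fit used 12758 probe sets. With 2 arrays a group, precision is set by the number of arrays. The script was tested on simulated data.

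The genes, lists and tests were chosen with earlier results of these data known. Named were all 10 ADAM genes, GATA6, up to 4 called genes with the largest change per list and line, and the 5 genes most like ADAM22 and ADAM23. Markers, genes at the bottom of the scale and RHBDF2 are named besides, and values of some named genes in their other line are added. Of 35 pairs of a related gene and a line named by that rule, 14 had other tested probe sets. In 0 of them did such a set change in the opposite direction (unadjusted p under 0.05). Alternatives covered the filter, normalization, variance model, samples fitted, probe set, a floor, a fold minimum, a replicate block and leaving out each array. Replicate numbers did not pair samples across groups: deviations of same-numbered arrays correlated at 0.07 in Caco-2 and -0.02 in HUG1N.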

Additional observations from a re-analysis of the deposited data

Results flagged for a closer look

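In 7 of the named related genes with at least 1 array over log2 4 in each line, both shRNA arrays lay on one side of both control arrays in HUG1N and on the other side in Caco-2; 73.5% of all genes tested had groups that did not overlap in Caco-2 and 74.6% in HUG1N, and the difference between the lines was not tested. Those shares are for each line alone, and the share of all genes on opposite sides was not counted. The genes were named for being called in at least 1 line, so nothing is read from the count of 7. The inhibitor TIMP2 differed by -0.81 in HUG1N and 0.50 in Caco-2 on the log2 scale, shRNA minus control. The adhesion molecule ICAM1 differed by -0.15 and 1.68, and the receptor kinase AXL by -2.33 and 0.26, in the same order. For the 14-3-3 proteins the differences in HUG1N and Caco-2 were -0.75 and 0.24 for YWHAH and 0.28 and -0.17 for YWHAQ. The integrin ITGA2 differed by -0.11 in HUG1N and 1.42 in Caco-2, and ITGAV by -0.61 in HUG1N and 0.18 in Caco-2. Only TIMP2 was called in both lines. ICAM1 and ITGA2 were not called in HUG1N, and AXL, YWHAH, YWHAQ and ITGAV were not called in Caco-2. In HUG1N the nearest ICAM1 arrays of the groups read 6.965 (shRNA) and 6.968 (control). Of the ADAM genes, ADAM23 lay above in HUG1N and below in Caco-2, but no HUG1N array passed log2 4 (2.09 on both shRNA arrays and 2.08 on both control arrays), so it is not counted. No other ADAM gene lay on opposite sides by its brightest probe set.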

How the results depend on the processing

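Of 84 alternative values for single ADAM genes in HUG1N, 69 kept direction and side of the threshold, 11 lost the call, 3 gained it and 1 reversed, which was ADAM17 at 0.0646 with the mean of its probe sets. Between the lines 98 of 99 values kept both, and ADAM10 reversed to 0.0436 with median centring. The 99 include 16 values of ADAM15, 15 of ADAM19 and 17 of ADAM28. These genes passed the filter through a single line, so nothing is read from their stability. The number of ADAM genes called in HUG1N was 4, 1 with a minimum of 2-fold, and 2 to 4 with 1 array left out, the lowest without HUG1N control replicate 2. Between the lines it was 5, and 3 with a filter at log2 6, which left 4 genes tested. With the replicate block 3 ADAM genes were called in HUG1N (ADAM10 was lost, adjusted p = 0.0658) and 5 between the lines. Over 18 settings the number of ADAM genes called in HUG1N ran from 1 to 5. The related genes called fell to 8 from 31 in HUG1N and to 13 from 28 in Caco-2 with the 2-fold minimum. Over all genes the 2-fold minimum left 903 of 3746 calls in HUG1N, 742 of 2982 in Caco-2 and 3534 of 6032 between the lines, and Caco-2 had 1932 without control replicate 1 and 1838 without control replicate 2. The ADAM22 difference in Caco-2 was -0.80 with the mean of its 6 probe sets, 5 of which lack a usable signal, and -2.39 with values floored at log2 4; ADAM23 gave -3.78 with that floor. Without a filter 5 single ADAM probe sets were called in HUG1N, against 7 with it. Of 626 values for named related genes and GATA6, 606 kept direction and call and 0 reversed. Causes were not tested. Levels under log2 4 limit ADAM8 and ADAM12 in both lines, ADAM15 and ADAM28 in Caco-2, and ADAM19, ADAM22 and ADAM23 in HUG1N.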
